A study of Homo sapiens with 4 samples.

Results

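The E2F transcription factors and their DP partners were examined in Kasumi-1 cells with and without ANP32B knockdown. The members were taken by name, as 8 E2F genes and 2 TFDP genes, among the 18567 genes of the deposited table. Values were present for 9 of these 10 genes, and all 9 passed the filter on low values, as did 16817 genes in total. E2F7 was not analysed here. Kasumi-1 is an established line of human acute myeloid leukemia that carries the RUNX1::RUNX1T1 fusion. RNA was sequenced from 2 samples named NC, which are labelled as having no treatment and no shRNA, and from 2 samples named sh-ANP32B, which are labelled as ANP32B knockdown. The methods speak of a control hairpin and of lentiviral stable lines screened with puromycin, so whether the NC cells were infected is not settled, and infection and knockdown cannot be told apart if they were not. The hairpin used in each sh-ANP32B sample is not named, both groups come from a single line, and nothing states that the samples of a group were separate cultures, so p-values measure the spread between these samples, which may be technical.

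E2F proteins bind the promoters of genes needed for DNA replication, usually as a dimer with a DP protein. E2F1, E2F2 and E2F3 are the activators, which the retinoblastoma protein RB1 holds inactive until cyclin-dependent kinases (CDKs) phosphorylate it late in G1. E2F4 and E2F5 act mostly as repressors with the RB1 relatives RBL1 and RBL2 in resting cells, E2F6 represses without any pocket protein as part of a Polycomb complex, and E2F7 and E2F8 are atypical repressors that bind DNA without a DP partner and are themselves induced in S phase. The genes of several E2Fs carry E2F sites in their own promoters, so the family takes part in its own control.

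The promoters of the members are shown first, because E2F sites in them are the route by which the family can act on its own genes. RefSeq promoters (GRCh38.p14, 250 bases before to 50 bases after the start of a gene) were found for 8 of the 10 members. Letters of E2F sites (TTTGGCGC, TTTCGCGC or TTTCCCGC, on either strand) were present in the promoters of E2F1, E2F2, E2F3 and TFDP1. The whole E2F1 promoter (chr20:33686336-33686635, minus strand) and the 80 bases around the letters in E2F2 (chr1:23531232-23531311, minus strand), E2F3 (chr6:20401790-20401869, plus strand) and TFDP1 (chr13:113584597-113584676, plus strand) read as follows from 5′ to 3′, with the E2F letters in capitals and, for E2F1, also the letters CCAAT of the NF-Y site or their complement.
E2F1: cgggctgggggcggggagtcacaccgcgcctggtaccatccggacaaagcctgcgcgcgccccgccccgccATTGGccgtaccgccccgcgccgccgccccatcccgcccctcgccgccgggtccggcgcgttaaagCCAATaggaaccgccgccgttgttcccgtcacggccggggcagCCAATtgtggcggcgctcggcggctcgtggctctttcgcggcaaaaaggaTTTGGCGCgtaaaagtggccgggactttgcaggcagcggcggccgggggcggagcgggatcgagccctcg
E2F2: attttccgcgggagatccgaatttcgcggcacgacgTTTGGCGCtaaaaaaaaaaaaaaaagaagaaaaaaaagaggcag
E2F3: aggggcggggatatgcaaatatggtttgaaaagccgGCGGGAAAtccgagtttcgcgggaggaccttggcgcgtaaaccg
TFDP1: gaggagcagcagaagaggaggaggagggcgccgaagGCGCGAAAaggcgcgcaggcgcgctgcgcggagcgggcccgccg
In E2F1 the letters TTTGGCGC ended 13 bases before the start and in E2F2 35 bases before it. The capitals in E2F3 are the complement of TTTCCCGC and those in TFDP1 the complement of TTTCGCGC. Among all 35116 promoters of the table, TTTGGCGC was held by 0.652%, TTTCGCGC by 0.515% and TTTCCCGC by 1.63%. In the same window E2F4 and E2F6 held none of these letters, and E2F7 and TFDP2 held CCAAT, as 34.6% of all promoters do, but no E2F letters. A match in these letters is a description of the window and not a measured binding site.

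The knockdown itself was checked first. ANP32B had 383.8 and 392 TPM in the NC samples and 51.8 and 41.2 TPM in the sh-ANP32B samples (log2 difference -3.04, SE 0.150, limma adjusted p 0.00516). TPM is a level scaled by transcript length and then set to a common total in each sample, and a log2 difference is the mean of log2(TPM + 1) in sh-ANP32B minus that in NC. Of 16817 genes, 199 fell and 360 rose at a limma adjusted p under 0.05. Median-of-ratios scaling gave 288 falling and 230 rising genes and quantile normalization gave 234 and 244. GC correction, fitted only to the 15427 genes with a known GC content, gave 1338 and 1220. The log2 difference had a median of 0.08 over the genes tested. Mitochondrial transcripts made up 12.9% and 13.1% of the NC samples and 11.4% and 8.43% of the sh-ANP32B samples. Among markers of the line, RUNX1T1 had 17.6 and 15.6 TPM in NC against 31.2 and 26.8 TPM in sh-ANP32B (log2 difference 0.77, limma adjusted p 0.0632). KIT had only 1.55 and 2.31 TPM in NC against 3.41 and 2.76 TPM in sh-ANP32B, and CD34 and MPO were not analysed here.

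In NC cells the levels of the members spanned a wide range. TFDP1, which encodes the main DP partner, stood far above all others with 578 and 551 TPM, at percentile 98.8 of the genes tested. Next in order of mean were E2F4 with 76.4 ± 7.10 TPM, E2F8 with 65.3 ± 3.42 TPM and E2F1 with 43.8 ± 0.789 TPM (SD, 2 samples). The samples of these 3 genes did not overlap with each other. E2F3, E2F2 and E2F6 followed at 24.7 ± 2.00, 23.5 ± 1.11 and 21.7 ± 1.22 TPM, of which E2F3 and E2F2 overlapped, while E2F2 and E2F6 did not overlap but differed by little more than their SDs. TFDP2 had 14.3 ± 0.445 TPM and E2F5 the lowest level, 6.45 ± 2.28 TPM. In sh-ANP32B cells the order was the same except that E2F2 had moved below E2F6, and that the samples of TFDP2 and E2F5 overlapped.

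**Figure D1:**
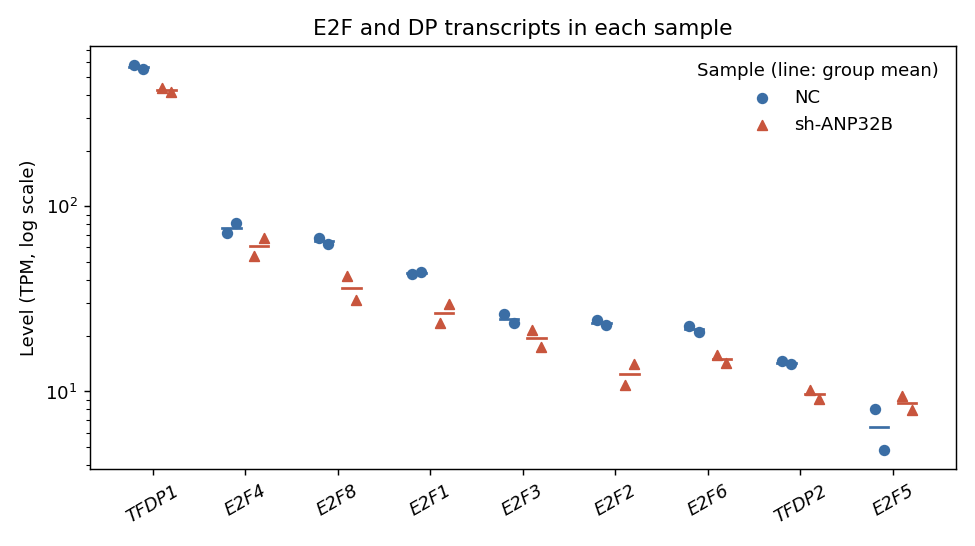
Level in TPM, on a log axis, of the 9 E2F and DP genes with values in the 2 NC samples (circles) and the 2 sh-ANP32B samples (triangles), with a line at each group mean. The sh-ANP32B samples of 8 genes sit below both NC samples, and only E2F5 overlaps.

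In 8 of the 9 members both sh-ANP32B samples lay below both NC samples, where 21.4% of all genes tested did so. The criterion of the study, which asks for an unadjusted p under 0.05 and a log2 difference beyond 0.5, was met in the lower direction on the limma p by 5 members (E2F1, E2F2, E2F6, E2F8 and TFDP2), against 6.55% of all genes, and 6 members had an unadjusted limma p under 0.05 with a lower level, against 8.72% of all genes. With limma p-values adjusted across the whole table, 0 of the 9 members fell, where 1.18% of all genes did, and 0 rose, where 2.14% did. The adjusted count depended on the fit. After GC correction 7 members were lower (all but E2F3 and E2F5), but so were 1338 of the 15427 genes in that fit. With any 1 sample left out, each member kept the sign of its log2 difference, which ran from -0.88 to -0.54 for E2F1 and from -0.47 to -0.20 for E2F3. A smaller share of cells in S phase and less transcript in each cell cannot be told apart in these bulk samples.

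All 3 activators had lower levels in both knockdown samples than in either NC sample. E2F1 (chromosome 20, 33675477 to 33686385, minus strand, hg38), the founding member of the family, had 43.2 and 44.3 TPM in the NC samples and 23.3 and 29.7 TPM in the sh-ANP32B samples. The groups were well separated, with the sh-ANP32B mean at 60.6% of NC, and the NC samples were closer to each other than the sh-ANP32B samples were. The log2 difference was -0.71 (SE 0.171, 95% interval -1.12 to -0.30, limma adjusted p 0.0732). E2F2 (chromosome 1, 23506438 to 23531233, minus strand), which shares its activator role, had 24.3 and 22.7 TPM in NC against 10.8 and 14.1 TPM in the knockdown. This was the most negative log2 difference of the family, -0.88 (SE 0.192, 95% interval -1.34 to -0.42, limma adjusted p 0.0599), with the mean at 52.9% of NC. E2F3 (chromosome 6, 20401879 to 20493714, plus strand) had 26.1 and 23.3 TPM in NC against 21.4 and 17.5 TPM in the knockdown. Its groups touched closely, since the lower NC sample was 1.09 times the higher sh-ANP32B sample, and its log2 difference of -0.34 had a 95% interval from -0.76 to 0.09 (limma adjusted p 0.312).

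The repressors that bind RBL1 and RBL2 differed from each other. E2F4 (chromosome 16, 67192155 to 67198918, plus strand), the E2F with the highest level, had 71.4 and 81.5 TPM in NC against 54.2 and 67.6 TPM in the knockdown. The nearest samples of the groups were closer to each other than the samples within either group, and the log2 difference was -0.33 (SE 0.164, 95% interval -0.72 to 0.06, limma adjusted p 0.279). E2F5 (chromosome 8, 85177154 to 85217158, plus strand) had 8.07 and 4.84 TPM in NC against 9.45 and 7.95 TPM in the knockdown. It was the sole member with a positive log2 difference, 0.41, but its groups overlapped and its 95% interval ran from -0.24 to 1.07 (limma adjusted p 0.413). E2F5 overlaps 3111 bases of RBIS on the opposite strand, a gene with 51.3 to 101 TPM over the samples, and strand is not stated to have been used in the counting, so the low value of E2F5 is uncertain.

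The members that act without RB1 both had non-overlapping groups. E2F6 (chromosome 2, 11444375 to 11466177, minus strand), the Polycomb-linked repressor, had 22.6 and 20.9 TPM in NC against 15.8 and 14.2 TPM in the knockdown, with a log2 difference of -0.51 (SE 0.170, 95% interval -0.91 to -0.10, limma adjusted p 0.141). Its processed copy E2F6P1 had 1.61 to 3.48 TPM and may share reads with it. E2F8 (chromosome 11, 19224063 to 19241620, minus strand), the atypical repressor of the S phase programme, had 67.7 and 62.9 TPM in NC against 41.8 and 31.0 TPM in the knockdown. Its mean was at 55.8% of NC, with a log2 difference of -0.84 (SE 0.180, 95% interval -1.27 to -0.41) and the smallest limma adjusted p of the family, 0.0581. That value was 0.0478 after median-of-ratios scaling and 0.0452 when every sample had to reach 1 TPM. The whole of E2F8 overlaps the antisense RNA CSRP3-AS1, which had 2.41 and 1.37 TPM in NC and was listed at 0 and 0.430 TPM in the knockdown, so reads of these genes cannot be told apart without strand.

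Both DP partners were lower with tight replicates. TFDP1 (chromosome 13, 113584721 to 113641473, plus strand), the DP protein of most E2F dimers, had 578 and 551 TPM in NC against 437 and 416 TPM in the knockdown. The groups were clearly apart although the log2 difference was only -0.40 (SE 0.118, 95% interval -0.69 to -0.12, limma adjusted p 0.108). TFDP2 (chromosome 3, 141944428 to 142149544, minus strand), the second DP gene, had 14.6 and 14.0 TPM in NC against 10.2 and 9.17 TPM in the knockdown, with a log2 difference of -0.52 (SE 0.185, limma adjusted p 0.158). The level of TFDP1 was 39.5 and 39.4 times that of TFDP2 in NC and 42.7 and 45.4 times in sh-ANP32B, so the excess of TFDP1 was present in every sample.

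**Figure D2:**
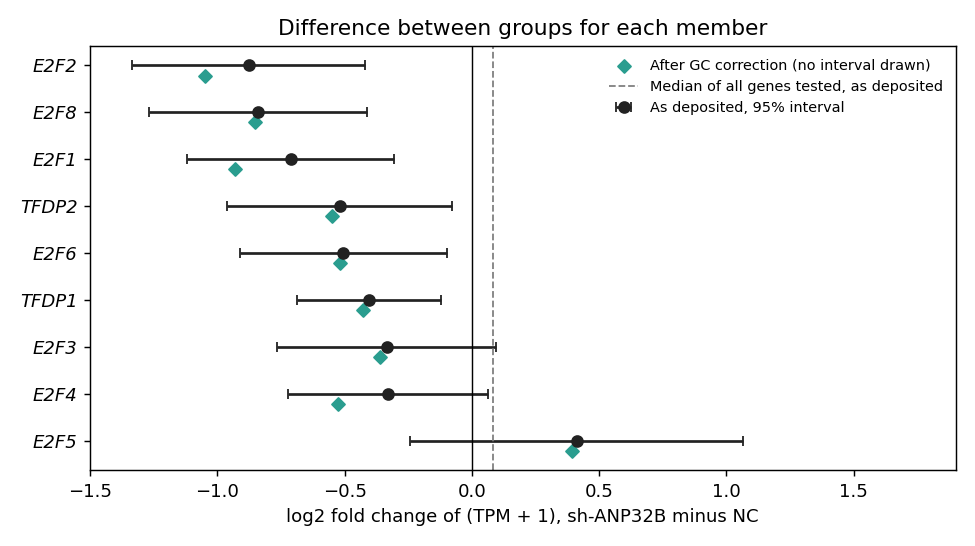
Difference between groups of each member on the log2(TPM + 1) scale, with the 95% interval of the limma fit (circles with bars) and the value after GC correction (diamonds). The intervals of E2F2, E2F8, E2F1, TFDP2, E2F6 and TFDP1 lie below 0, those of E2F3, E2F4 and E2F5 include it, and the dashed line is the median of all genes tested, 0.08.

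The sum over the 7 E2F genes was 263 and 260 TPM in NC against 177 and 182 TPM in the knockdown, so that knockdown samples held 68.5% of the NC sum. The DP sum was 75.4% of NC, and the ratio of DP to E2F transcripts was 2.25 and 2.17 in NC and 2.53 and 2.34 in sh-ANP32B. This E2F sum includes E2F8, which binds DNA without a DP partner and had a mean at 55.8% of NC. The ratio is therefore not that of DP transcripts to those of the E2Fs that pair with them. The activators E2F1, E2F2 and E2F3 summed to 93.7 and 90.4 TPM in NC against 55.6 and 61.2 TPM in the knockdown, or 63.5% of NC. E2F4 and E2F5 summed to 79.5 and 86.3 TPM against 63.6 and 75.5 TPM, or 83.9% of NC, and E2F6 and E2F8 to 90.3 and 83.8 TPM against 57.6 and 45.3 TPM, or 59.1% of NC. Activator transcripts were 1.18 and 1.05 times those of E2F4 and E2F5 in the NC samples and 0.874 and 0.811 times in the sh-ANP32B samples. Against E2F4 alone, without the uncertain value of E2F5, the ratios were 1.31 and 1.11 in NC and 1.03 and 0.906 in the knockdown, so that the knockdown samples lay on both sides of 1. E2F1 was at 0.605 and 0.544 times the level of E2F4 in NC and at 0.431 and 0.440 times in the knockdown. With 2 samples per group the smallest two-sided p of an exact permutation test is 0.333, so these sums and ratios were described without a test. They were made without GC correction. With it the log2 difference was -0.53 instead of -0.33 for E2F4 and -0.85 instead of -0.84 for E2F8.

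**Figure D3:**
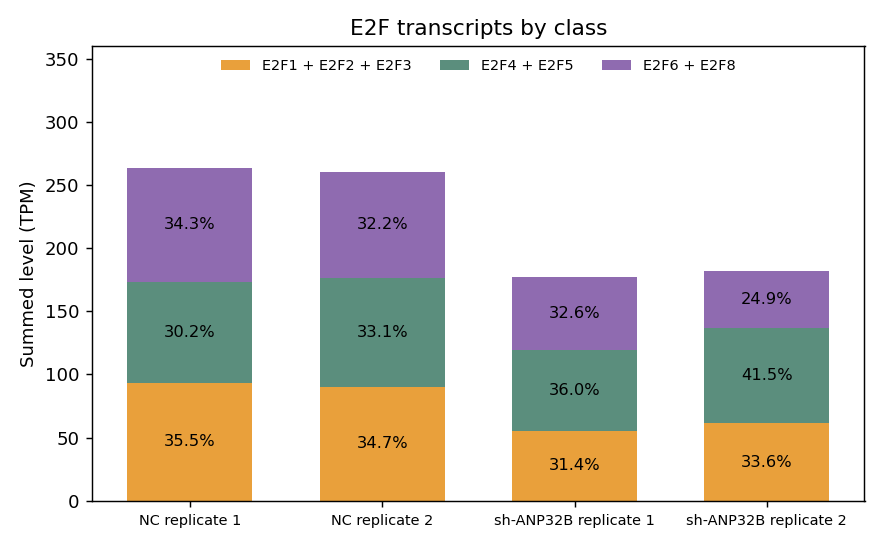
Summed level in TPM of E2F1, E2F2 and E2F3, of E2F4 and E2F5, and of E2F6 and E2F8 in each of the 4 samples as stacked bars, with each class as a percent of the E2F sum. E2F4 and E2F5 take 30.2% and 33.1% of the NC sums and reach 41.5% in sh-ANP32B replicate 2.

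The spread of the members between the knockdown samples went with their GC content. E2F1, E2F2 and E2F4, whose longest transcripts hold 61.6%, 57.4% and 59.3% GC, were higher in sh-ANP32B replicate 2 than in replicate 1 by 0.34, 0.35 and 0.31 on the log2 scale. The other 6 members hold 38.3% to 46.8% GC, and each was lower in replicate 2, from TFDP1 at -0.07 to E2F8 at -0.42. Over all genes the same difference had a median of -0.36 in the lowest of 10 GC bins and 0.44 in the highest, while the NC replicates ran from 0.10 to -0.06. With GC correction, in which a loess curve on GC content is removed from each sample, the log2 differences of E2F1, E2F2 and E2F4 were -0.93, -1.05 and -0.53, with limma adjusted p of 0.00635, 0.00685 and 0.0226. Those of E2F8, E2F6, TFDP1 and TFDP2 were -0.85, -0.52, -0.43 and -0.55, with limma adjusted p of 0.0110, 0.0380, 0.0216 and 0.0437. The correction also removes any true difference between groups that follows GC content.

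**Figure D4:**
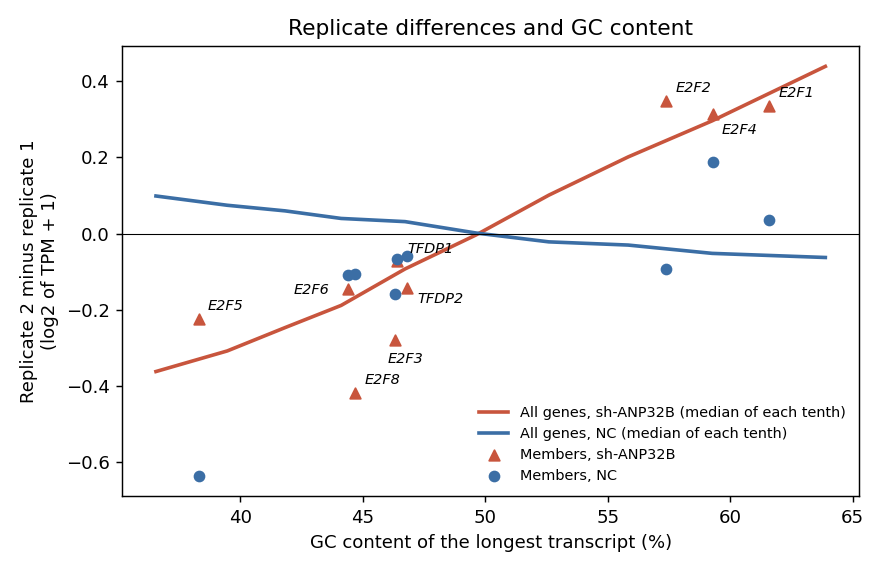
Replicate 2 minus replicate 1 on the log2(TPM + 1) scale against the GC content of the longest transcript, for the 9 members (triangles in sh-ANP32B, which carry the names, and circles in NC) and for all genes as medians of 10 bins of GC content (lines). The sh-ANP32B line climbs from -0.36 to 0.44, with the triangles of E2F1, E2F2 and E2F4 above 0 and the other 6 below.

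Upstream of the family, the pocket proteins and then the genes that set their phosphorylation were read. Of the 3 pocket protein genes, 0 passed the adjusted limma test, where 1.18% of all genes fell and 2.14% rose. RB1, which restrains the activators, had 136.5 and 149.6 TPM in NC against 167 and 121 TPM in the knockdown, with overlapping groups and a log2 difference of -0.01 (limma adjusted p 0.987). RBL1, itself a product of an E2F target gene, had 22.1 and 25.0 TPM in NC against 18.2 and 11.8 TPM in the knockdown (log2 difference -0.65, limma adjusted p 0.160). RBL2, the pocket protein of resting cells, had 108 and 115 TPM in NC against 145 and 119 TPM in the knockdown, without overlap (log2 difference 0.24, limma adjusted p 0.378).

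Of 7 G1 cyclin and CDK genes tested, 1 fell and 0 rose, where 1.18% and 2.14% of all genes did, and the median log2 difference was -0.61. CDK4, the kinase that starts the phosphorylation of RB1, fell from 138 and 138 TPM in NC to 72.4 and 84.3 TPM in sh-ANP32B (log2 difference -0.81, limma adjusted p 0.0426). CCNE1 and CCNE2, the E-type cyclins that complete it and are E2F targets, had log2 differences of -1.35 and -1.18 with limma adjusted p of 0.0514 and 0.0816. The values for CDK6 and the D-type cyclins CCND2 and CCND3 were -0.40, 0.03 and -0.20, with limma adjusted p of 0.267, 0.943 and 0.631. Of 6 CDK inhibitor genes tested 0 fell and 1 rose, with a median of 0.51. CDKN1A, which encodes the CDK2 inhibitor p21, rose from 15.4 and 18.3 TPM to 30.8 and 41.5 TPM (log2 difference 1.05, limma adjusted p 0.0482), a call that was lost after median-of-ratios scaling, after quantile normalization, with a pseudocount of 0.1, with no abundance trend and without NC replicate 1. MYC, which activates transcription of E2F genes, fell from 131 and 144 TPM to 56.7 and 63.2 TPM (log2 difference -1.18, limma adjusted p 0.0261).

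Around the E2F proteins, the MuvB core forms the DREAM repressor with E2F4 and an activator with MYBL2. Together with MYBL2 and FOXM1 it had 2 of 7 genes lower and 0 higher, against 1.18% and 2.14% of all genes. MYBL2, an E2F target that turns MuvB into an activator, fell from 173 and 166 TPM to 89.8 and 101 TPM (log2 difference -0.83, limma adjusted p 0.0392). FOXM1, the mitotic factor that acts with it, fell from 116 and 113 TPM to 62.9 and 67.9 TPM (log2 difference -0.80, limma adjusted p 0.0399). Among 7 tested genes for cofactors and degradation of E2F proteins, 1 fell. SKP2, the ubiquitin ligase subunit that targets E2F1 and p27, fell from 85.5 and 89.6 TPM to 46.8 and 48.8 TPM (log2 difference -0.86, limma adjusted p 0.0371). Of the 11 tested genes of the E2F6 complex 0 passed, 6 had a negative and 5 a positive value, and the median was -0.03. The smallest p in that complex belonged to MAX, the partner of MYC and MGA, with a log2 difference of 0.59 (limma adjusted p 0.0581).

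The target genes of the family were lower as a group. All 36 genes of the G1/S target list had both sh-ANP32B samples below both NC samples. Of them 19 fell and 0 rose at a limma adjusted p under 0.05, and 34 met the criterion of the study. Of all genes tested, 21.4% had both sh-ANP32B samples below both NC samples, 1.18% fell and 2.14% rose. The criterion was met in the lower direction by 6.55%. Their median log2 difference was -0.81, with a range from -1.13 to -0.46, against a median of -0.51 for the 9 members and 0.08 for all genes. The 3 genes that fell most were UHRF1, which recruits maintenance DNA methylation (log2 difference -1.13, limma adjusted p 0.0440), MCM3, a subunit of the replicative helicase (-1.12, limma adjusted p 0.0270), and PRIM1, the primase catalytic subunit (-1.05, limma adjusted p 0.0448). Of the 23 mitotic genes tested, which take input from DREAM and MYBL2 with FOXM1, 2 fell and 0 rose, the groups did not overlap in any of the 23, and the median was -0.56. MKI67, the proliferation antigen, fell from 144 and 151 TPM to 84.0 and 74.0 TPM (log2 difference -0.90, limma adjusted p 0.0354), and BUB1, a spindle checkpoint kinase, had a log2 difference of -0.84 (limma adjusted p 0.0440). Without NC replicate 1 or without NC replicate 2 only 3 of the 113 tested genes of these lists fell, against 25 with all samples.

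**Figure D5:**
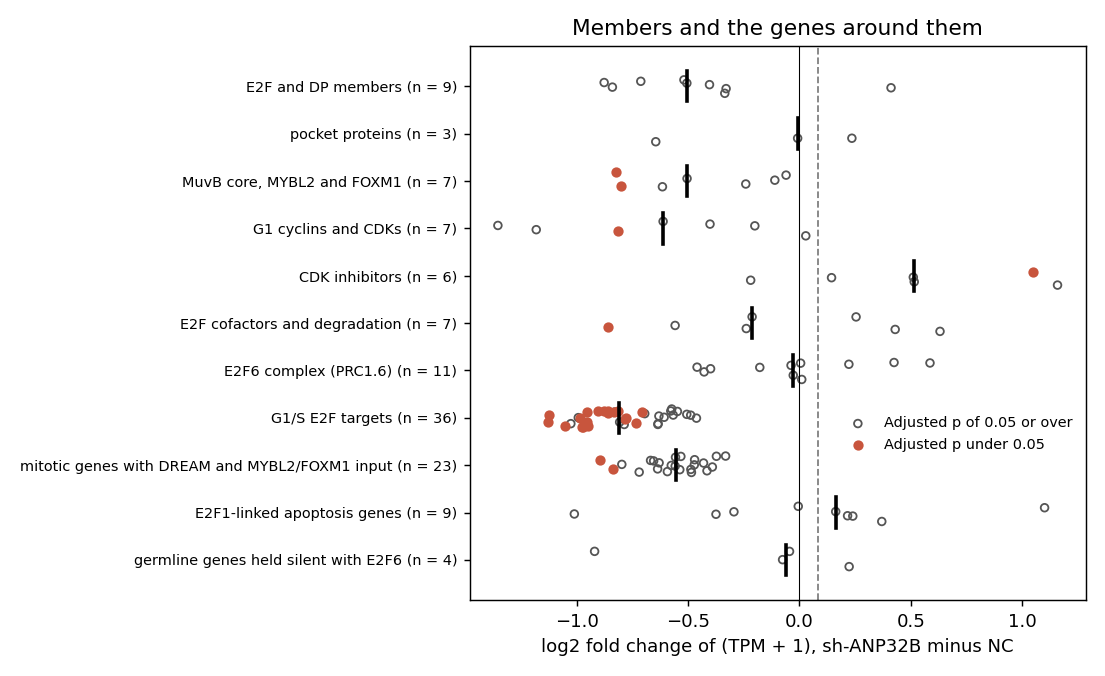
Log2 fold change of every tested gene in the member list and in the 10 lists around it, with filled points for a limma adjusted p under 0.05, a bar at each list's median and a dashed line at the median of all genes, 0.08. The 36 G1/S targets lie between -1.13 and -0.46, while the pocket proteins and the E2F6 complex lie on both sides of 0.

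The E2F letters were then counted in the promoters of the genes that moved. Of 9959 tested genes with a promoter in the table, 5.69% held TTTGGCGC, TTTCGCGC or TTTCCCGC on either strand. The share was 18.1% of the 127 genes that fell and 2.65% of the 226 genes that rose, and 56.2% of the 32 G1/S targets with a promoter. Since 19 of the 36 listed G1/S targets fell, the falling genes and the targets share members and their shares are not independent. The median log2 difference was -0.07 for the 567 tested genes with the letters and 0.07 for those without. The letters CACGTG, the E-box bound by MYC with MAX, were held by 13.0% of the tested genes, 18.9% of those that fell and 14.6% of those that rose. TTTGAA, the CHR letters of mitotic promoters, were held by 12 of 18 mitotic genes with a promoter and by 13.5% of tested genes. These shares were described without a test.

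Markers of mature and of immature myeloid cells moved with the groups as well. Of 8 markers of mature monocytes and granulocytes, 6 had values. Their summed level was 702 and 728 TPM in NC against 1413 and 1384 TPM in the knockdown. Most of each sum was the lysozyme gene LYZ, with 669 and 697 TPM in NC against 1360 and 1316 TPM in the knockdown. LYZ was the 1 of them that rose (log2 difference 0.97, limma adjusted p 0.0281), as 2.14% of all genes did. In 5 of the 6, LYZ included, both knockdown samples lay above both NC samples, as in 5579 of the 16817 genes tested. CD14 and CD163 were not analysed here. The 6 of 8 markers of the line and of immature myeloid cells with values summed to 576 and 554 TPM in NC and to 737 and 752 TPM in sh-ANP32B, and 0 of them passed the test. In all 6 of these markers both knockdown samples lay above both NC samples, so the rise was not particular to the mature list. The 4 B cell markers with values summed to 13.8 and 16.7 TPM in NC and to 8.35 and 9.97 TPM in sh-ANP32B, with CD79A listed at 0 in sh-ANP32B replicate 1. The 2 T cell markers with values summed to 2.97 and 2.40 TPM in NC and to 9.78 and 9.43 TPM in sh-ANP32B, and CD2 rose (log2 difference 1.99, limma adjusted p 0.0261). The 1 erythroid marker with a value stayed between 0.233 and 2.24 TPM. PECAM1, the 1 of the epithelial and stromal list, had 34.8 and 37.8 TPM in NC against 58.7 and 45.4 TPM in sh-ANP32B. The part of these markers, of the mitochondrial share and of GC content in the values of the E2F family was not tested.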

How the data were processed

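Total RNA of 4 Kasumi-1 samples was made into libraries with the Illumina TruSeq RNA kit. Per the labels and the methods of the study, reads were aligned to hg38 with HISAT2 (2.0.5). The deposited values are TPM made by the authors, a unit identified from their sums of 997812 to 998314 per sample. The quantifier, the annotation and any filter are not given in the sources used here, so the depth is unknown and no counting interval was computed. Symbols, positions and GC content came from GENCODE v44, in which 16986 of 18567 gene IDs were found.

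Genes had to reach 1 TPM in 2 or more samples, and log2(TPM + 1) was compared by limma 3.58.1 (R 4.3.3) with an abundance trend, two-sided, with Benjamini-Hochberg adjustment over all 16817 genes. Fold changes on this scale understate those of low genes. No count test was run, since the values are not counts. The limma step was tested on simulated data without any shift by GC content. That simulation does not cover the replicate differences that follow GC content in these samples. Members and lists were chosen with earlier results of these data known. All members are named. From each list, up to 3 falling and 3 rising genes past the adjusted threshold are named, or else the gene with the smallest p, besides a fixed set of pocket protein, cyclin, CDK and MuvB genes with MYC and ANP32B. E2F6P1, RBIS and the CD markers were named after their values were seen. Protein sequences were not used here. Scripts ran in Python 3.11.15 with pandas 2.3.3. Alternatives were scaling, pseudocount, filter, GC correction, variance model, replicate block, the criterion of the study and leaving out each replicate. GC correction covered the 15427 genes with GC content, over which its p-values were adjusted.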

Additional observations from a re-analysis of the deposited data

How the results depend on the processing

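Of the 9 members, the 8 with a negative log2 difference kept that sign in all 13 alternative fits, and E2F5 kept its positive sign. Their limma adjusted p crossed 0.05 in 0 of 13 fits for E2F3 and E2F5 and in up to 6 for E2F8. At an adjusted p under 0.05 the number of lower members was 0 as reported and 1 after median-of-ratios scaling. It was 1 if every sample had to reach 1 TPM, 7 with GC correction and 3 with the replicate block. The criterion of the study, which uses an unadjusted p, gave 5. Leaving out each replicate gave 0 to 6 members, 59 to 1628 lower and 214 to 2451 higher genes, and 3 to 74 lower and 0 to 8 higher list genes. In those fits the lone sample is assumed to vary like the other group, the fits without NC replicate 1 or 2 gave 80 and 59 lower genes, and those without sh-ANP32B replicate 1 or 2 gave 1628 and 1424.

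Lower genes among all tested, 199 as reported, were 1338 with GC correction (of 15427 genes with GC content). They were 491 with the replicate block, 1101 under the criterion of the study and 0 without the abundance trend. Higher genes, 360 as reported, were 230 after median-of-ratios scaling, 1220, 982, 2029 and 0 in the same order. Of the list genes 25 were lower as reported, 74 with GC correction, 43 with the replicate block, 61 under the criterion and 0 without the trend, and 1 was higher as reported, 0 after median-of-ratios scaling, quantile normalization, a pseudocount of 0.1 or removal of the trend, 3 if every sample had to reach 1 TPM, 5 with GC correction, 3 with the replicate block and 5 under the criterion. Without the trend limma still gave an unadjusted p under 0.05 for 3701 genes, 5 of the members and 71 list genes. The cause of these shifts was not tested. Equal replicate numbers are not stated to mark samples handled together, and the correlation across genes of their deviations from the group means was -0.0925 by Pearson and -0.168 by Spearman, so the numbers were not taken to pair the samples. With the replicate block, where limma shrank every variance fully to the trend, the limma adjusted p of E2F1, E2F2 and E2F8 was 0.0395, 0.0174 and 0.00738. TPM keeps no depth, so what depth limits could not be stated for the low member E2F5.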

Other observations

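Genes linked to E2F1 in apoptosis had log2 differences on both sides of 0. Of 9 tested, 0 fell and 0 rose at a limma adjusted p under 0.05, where 1.18% and 2.14% of all genes did. The criterion of the study was passed by 1 in each direction, as it was by 1101 lower and 2029 higher of the 16817 genes tested. The median log2 difference of the list was 0.16. BBC3, which encodes the BH3-only protein PUMA, had the smallest p of this list, with 14.4 and 14.0 TPM in NC against 21.5 and 46.3 TPM in the knockdown (log2 difference 1.10, limma adjusted p 0.116). TP73, a direct E2F1 target, had 3.54 and 5.13 TPM in NC against 0.881 and 2.65 TPM in the knockdown (log2 difference -1.01, limma adjusted p 0.183), a gene named after its values were seen.

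Of 10 germline genes listed as silenced with E2F6, 4 had values, all above 2 TPM in each sample. Of these 0 passed the adjusted test, where 1.18% of all genes fell and 2.14% rose. The other genes of the list had no values and the filter of the deposited values is unknown, so these 4 cannot speak for the list. SMC1B, the meiotic cohesin subunit, had 29.9 ± 2.39 TPM in NC against 15.5 ± 3.55 TPM after knockdown (SD, 2 samples each, log2 difference -0.92, limma adjusted p 0.0607). STAG3, TDRKH and TUBA3D had log2 differences between -0.08 and 0.22.

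Among 11755 genes with a mean of at least 5 TPM, the 5 closest to E2F1 in their centred log2(TPM + 1) values over the 4 samples were HNRNPA1P7, TCF19, SLC37A4, IFRD2 and ICMT, at Euclidean distances of 0.0313 to 0.0661. TCF19, a factor expressed late in G1, had 7.81 and 8.09 TPM in NC against 3.72 and 5.12 TPM in the knockdown. HNRNPA1P7 is a processed copy of HNRNPA1, so its value is uncertain. Like E2F1, all 5 were higher in sh-ANP32B replicate 2 than in replicate 1, and the part of GC content in this likeness was not tested. With 4 samples such likeness is a description only.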
